A study of Mus musculus with 42 samples.

Results

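The response of mouse odorant receptors (ORs) to a 10-fold step in odor concentration was examined by setting mice exposed to 0.1% TMT directly against mice exposed to 0.01% TMT, without passing through the no odor controls. TMT (2,5-dihydro-2,4,5-trimethylthiazoline) is a volatile component of fox feces that innate avoidance studies use as a predator odor. Every intact Olfr gene of the deposited tables was taken, 1088 of the 1088 in the series, from 6 of its 42 libraries, and the choice of genes used no measured value. The 3 mice at 0.1% TMT and the 3 mice at 0.01% TMT were C57BL/6 mice (C57BL/6J in the study's methods) of postnatal day 20 to 22, and per the study's methods each numbered replicate held same-sex littermates, so that libraries were compared within litters 1, 2 and 3. The percentage is the starting concentration by volume in water of the liquid spotted on paper, not the concentration in the air. Another littermate of each set received no odor, and mice of other litters received 1% or undiluted (100%) TMT, or acetophenone (ACT) at 0.01% or 0.1%. Total RNA libraries of dissected dorsal and ventral olfactory epithelium served only to group the ORs by zone.

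Each mature olfactory sensory neuron expresses essentially a single OR gene, from one allele. When an odorant opens the cyclic AMP pathway downstream of that receptor and the neuron fires, ribosomal protein S6 becomes phosphorylated. Immunoprecipitation of phosphorylated S6 from the olfactory epithelium (pS6-IP-Seq) brings down ribosomes and their RNA preferentially from active neurons, so the mRNA of an OR becomes enriched when the neurons that carry it respond. ORs fall into class I, the fish-like receptors, and the larger class II, and the genes lie in clusters in which close duplicates sit side by side. A measured OR level combines the number of neurons carrying that OR, the RNA in each neuron and the share of it that was captured, and these cannot be told apart in bulk libraries.

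Many of the ORs that changed have a close neighbor in the genome, so the coding sequences that separate such pairs are shown first, since the 50-base reads of this study could be assigned to one member only where the members differ. For each pair the 60-base coding window with the most differences is given 5′ to 3′ on the coding strand of GRCm38.p6, and capitals mark the bases that differ from the other member. Olfr531 (chr7:140400535-140400594, minus strand) and Olfr527 (chr7:140336317-140336376, plus strand), both of which were higher at 0.1% TMT, were 93.1% identical over their coding sequences and differed at 63 of 915 aligned positions.
Olfr531: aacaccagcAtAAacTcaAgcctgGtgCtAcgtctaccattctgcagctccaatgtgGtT
Olfr527: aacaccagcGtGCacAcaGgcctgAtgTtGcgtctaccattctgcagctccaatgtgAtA
Olfr164 (chr16:19286052-19286111, minus strand) and Olfr165 (chr16:19407334-19407393, minus strand), again both higher at 0.1% TMT, were 89.3% identical and had no coding stretch of 50 bases in common.
Olfr164: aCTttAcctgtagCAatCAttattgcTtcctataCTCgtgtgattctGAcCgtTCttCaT
Olfr165: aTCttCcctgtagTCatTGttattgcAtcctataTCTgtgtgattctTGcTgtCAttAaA
In the other 2 pairs shown, only the first member was called. Olfr1297 (chr2:111621724-111621783, minus strand) was 91.9% identical to Olfr1298 (chr2:111645647-111645706, minus strand).
Olfr1297: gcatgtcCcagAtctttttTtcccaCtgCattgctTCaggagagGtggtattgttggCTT
Olfr1298: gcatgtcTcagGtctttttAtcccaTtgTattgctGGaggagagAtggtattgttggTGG
Olfr196 (chr16:59168079-59168138, minus strand) was 91.3% identical to Olfr191 (chr16:59086419-59086478, minus strand).
Olfr196: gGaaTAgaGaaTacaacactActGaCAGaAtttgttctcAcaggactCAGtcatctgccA
Olfr191: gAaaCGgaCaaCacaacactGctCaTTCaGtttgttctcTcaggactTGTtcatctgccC

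The longest stretch that Olfr531 and Olfr527 share is shown because reads that fall within it match both genes, and their sequence alone does not tell which. It ran for 125 coding bases, at chr7:140400197-140400321 in Olfr531 and at chr7:140336590-140336714 in Olfr527, and the pair had 89 coding 50-base stretches in common.
Shared stretch: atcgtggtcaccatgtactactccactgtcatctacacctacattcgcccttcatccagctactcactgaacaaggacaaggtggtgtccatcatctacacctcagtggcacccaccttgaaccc

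The deposited tables gave 63971 to 112472 OR counts per 0.1% TMT library, 64318 to 85184 per 0.01% TMT library and 73372 to 77374 per no odor library, with 1013 to 1037 ORs holding at least 1 count. Of the 1088 ORs, 864 averaged 10 or more counts over the 6 libraries compared and 17 had none. The tables hold ORs only, and none of 19 markers of neurons, supporting cells, basal cells, blood, immune cells or neuronal activity was in them, so the labelled tissue was not checked against its markers. For the 0.1% TMT library of litter 1 the GEO labels are at odds with each other, the stimulant being given as 0.1% TMT and the file named for that sample being that of 1% TMT. The authors' R code puts it in the 0.1% table, and the 1% TMT table has other libraries for each of its replicates. This library is used here as 0.1% TMT, with counts without litter 1 given below. As 1 example, Olfr1160, chosen after its values were seen, had 172 CPM in that library, 269 and 217 CPM in the other 0.1% libraries and 1526 to 1807 CPM in the 1% TMT libraries. Other ORs differed from this pattern. Olfr177 had 1430 CPM in that library, 807 and 361 CPM in the other 0.1% libraries and 1442 to 1966 CPM at 1% TMT. For Olfr56 these levels were 4161 CPM, 2690 and 2156 CPM, and 3095 to 8445 CPM. Such picked ORs do not decide the label. Levels are counts scaled to a common total of OR counts (CPM) with size factors from the trimmed mean of M values (TMM), and fold changes are those of edgeR's quasi-likelihood test with litter as a block and Benjamini-Hochberg adjustment over the 1088 ORs, called at an adjusted p under 0.05.

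A set of 11 receptors, or 1.01% of all ORs, was higher at 0.1% than at 0.01% TMT, and 0 were lower (0%). They were Olfr186, Olfr164, Olfr56, Olfr531, Olfr196, Olfr1506, Olfr1297, Olfr61, Olfr165, Olfr1395 and Olfr527. At an unadjusted p under 0.05 there were 31 higher and 11 lower ORs, and DESeq2 likewise called 0 lower. The receptors together took 6.51%, 6.55% and 6.14% of the OR counts in the 0.1% libraries of litters 1 to 3, against 3.14%, 2.50% and 5.11% in the 0.01% libraries, and 1.71% to 1.85% without odor. These shares are a description, since the same libraries chose the receptors, and Olfr1395 alone made up 2.61%, 2.43% and 2.43% of OR counts at 0.1%, against 1.31%, 0.742% and 2.84% at 0.01%. Without the litter block 4 were called (Olfr186, Olfr56, Olfr531 and Olfr196). Without litter 1 only Olfr186 and Olfr164 were called, without litter 2 there were 6 calls and without litter 3 there were 7, of which 5 and 5 were among the 11. The fitted changes of 5 receptors leaned on litter 2, without which the log2 fold change was 1.18 for Olfr164, 0.51 for Olfr1297, 0.51 for Olfr61, 0.49 for Olfr165 and 0.41 for Olfr1395. Without litter 3 that of Olfr1395 was 1.43.

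**Figure D1:**
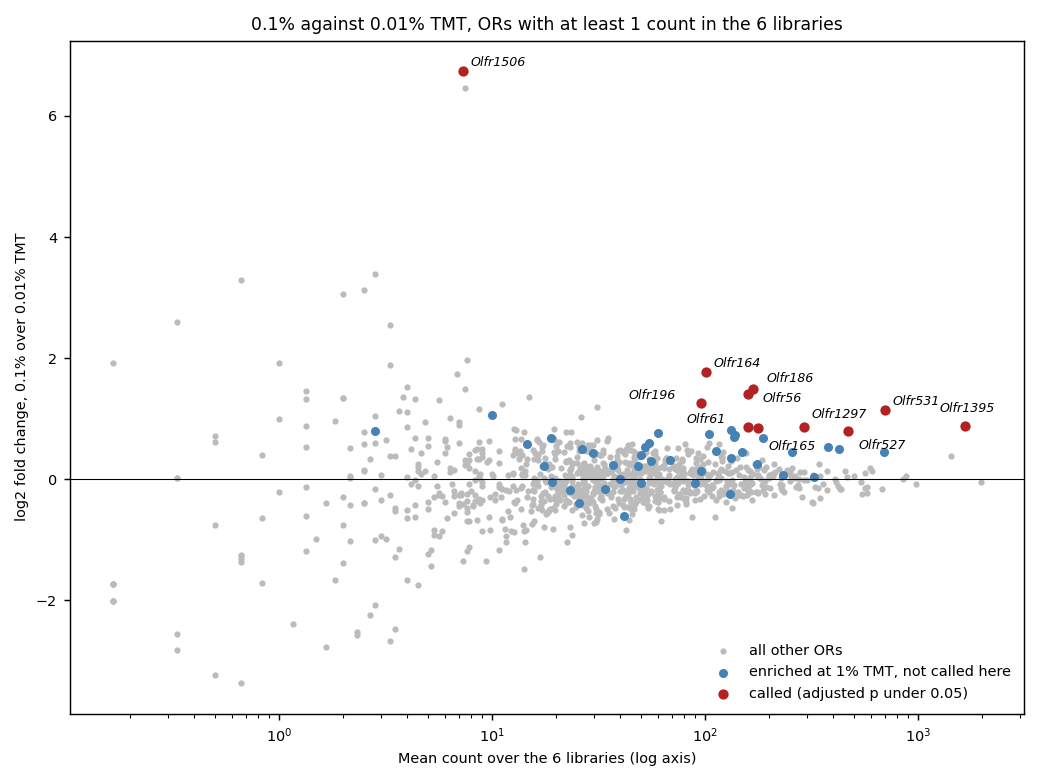
Log2 fold change of 0.1% over 0.01% TMT (vertical axis) against the mean count over the 6 libraries (log horizontal axis) for every OR with at least 1 count. Red points are the 11 called ORs, blue points the other ORs that were enriched at 1% TMT in other mice, and gray points all other ORs. The red points all lie above 0, and Olfr1506, with 44 counts in all, lies at the upper left beside the uncalled Olfr176.

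Olfr186 was the receptor whose difference held under every alternative tried. It lies on chromosome 16 at 59026923 to 59027927 on the minus strand. It had 3661, 2884 and 2851 CPM in the 0.1% libraries of litters 1 to 3, against 986, 1119 and 1223 CPM in the 0.01% libraries. All 3 values at 0.1% lay above every value at 0.01%, and the no odor littermates had 266 to 637 CPM. The log2 fold change was 1.49 ± 0.23 (SE of the fit, 3 litters), a 2.81-fold difference with a 95% interval of 2.06 to 3.83 (adjusted p = 1.12e-07, edgeR). In this comparison, SEs and 95% intervals of fitted changes rest mainly on a spread shared by all ORs, not on the spread among litters. The call of Olfr186 was made in 12 of 12 alternatives. Within litters the log2 difference was 1.88, 1.35 and 1.21.

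Olfr196, a member of the same chromosome 16 cluster with 77.8% of its coding bases identical to Olfr186, was also higher at the upper concentration. It lies at 59167212 to 59172112 on the minus strand. It had 2445, 1210 and 1516 CPM in the 0.1% libraries of litters 1 to 3, against 612, 938 and 564 CPM in the 0.01% libraries. The groups did not overlap, although in litter 2 the difference was small (log2 0.36, against 1.98 and 1.41 in litters 1 and 3). Olfr196 had a fitted log2 fold change of 1.26 ± 0.27 (adjusted p = 0.000913, edgeR), and the call was lost without litter 1, without litter 3 and by DESeq2. Its near duplicates were not called. Olfr191 had a log2 fold change of 0.00 ± 0.36 and Olfr193, which is 92.0% identical to Olfr196, one of -0.39 ± 0.41 (adjusted p = 1 for both, edgeR). Over the 26 ORs of that cluster the median log2 fold change was 0.04, against -0.01 over all 1088 ORs.

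Olfr164 and Olfr165 are adjacent on the minus strand of chromosome 16, at 19285794 to 19286741 and at 19406991 to 19430704, in a cluster of 8 ORs. Olfr164 had 1201, 2226 and 2048 CPM in the 0.1% libraries of litters 1 to 3, against 314, 252 and 1295 CPM in the 0.01% libraries. The 0.01% library of litter 3 was high, above the 0.1% library of litter 1, so the groups overlapped. The log2 fold change was 1.77 ± 0.29 (adjusted p = 3.82e-07, edgeR), but the within-litter differences spread from 0.66 to 3.08, and the call was lost without the litter block and without litter 2.

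Olfr165 had 2445, 2421 and 3212 CPM in the 0.1% libraries of litters 1 to 3, against 1493, 770 and 2614 CPM in the 0.01% libraries. As for Olfr164, the litter 3 library at 0.01% reached the range of the 0.1% libraries. For Olfr165 the log2 fold change was 0.85 ± 0.23 (adjusted p = 0.0242, edgeR), and the call was made in 4 of 12 alternatives. The no odor libraries held 266 to 309 CPM of Olfr164 and 226 to 406 CPM of Olfr165. Against them Olfr165 was enriched at 0.01% TMT (log2 2.19, adjusted p = 1.06e-07, edgeR), whereas Olfr164 was not called there (log2 0.74, adjusted p = 0.937). The next gene of the cluster, Olfr166, had a log2 fold change of 0.00 ± 0.22 between the TMT concentrations, a sign that changed with the scaling.

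Olfr531 and Olfr527, the near-identical pair on chromosome 7, rose together. Olfr531 (140400130 to 140401044, minus strand) ranked 4, 5 and 6 among the ORs in the 0.1% libraries, against 31, 12 and 22 in the 0.01% libraries. It had 13485, 12223 and 10943 CPM in the 0.1% libraries of litters 1 to 3, against 4958, 5723 and 5949 CPM in the 0.01% libraries. The no odor libraries, at 5232 to 5380 CPM, lay within the range of the 0.01% libraries. Olfr531 thus differed by 1.14 ± 0.23 on the log2 scale, or 2.21-fold (adjusted p = 0.000125, edgeR), and the call was lost only without litter 1. Olfr527 (140335864 to 140336781, plus strand) had 6592, 8577 and 7361 CPM at 0.1%, against 4540, 3722 and 4773 CPM at 0.01%. Its log2 fold change was smaller, at 0.79 ± 0.22 (adjusted p = 0.0336, edgeR), the groups did not overlap, and the call was made in 3 of 12 alternatives. Reads of either gene within the shared stretch shown above match both, and 2.24% of the 50-base stretches of the Olfr531 transcripts and 2.73% of those of Olfr527 also occur in another OR. The part of such reads in the joint change was not tested.

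Olfr61, another receptor of the same 19-gene cluster (140637703 to 140638638, plus strand), had 1802, 2899 and 2742 CPM at 0.1% TMT, against 1045, 952 and 2267 CPM at 0.01% TMT. Litter 3 showed the smallest difference (log2 0.27, against 0.78 and 1.59 in litters 1 and 2). Over all litters the log2 fold change was 0.87 ± 0.23 (adjusted p = 0.0242, edgeR), with the call made in 4 of 12 alternatives. In this cluster 14 of 19 ORs, the 3 called ones among them, had a log2 fold change above 0, against 47.7% of all ORs. The median was 0.18, against -0.01 over all ORs. The closest relative of Olfr61 was Olfr541, at 90.8% identity, with a log2 fold change of 0.35 ± 0.24 that was not called (adjusted p = 1, edgeR).

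On chromosome 11, Olfr56 (49134173 to 49135387, plus strand) and Olfr1395 (49148259 to 49149212, plus strand) are adjacent but only 66.2% identical. Olfr56 had 4161, 2690 and 2156 CPM at 0.1% TMT in litters 1 to 3, against 1105, 994 and 1187 CPM at 0.01% TMT. The 2 groups did not overlap. The no odor littermates, at 1191 to 1964 CPM, lay above all 3 libraries at 0.01% and below all 3 at 0.1%. The log2 fold change of 0.1% over 0.01% was 1.40 ± 0.23, or 2.64-fold (adjusted p = 5.72e-07, edgeR). Against no odor it was 0.84 at 0.1% TMT (adjusted p = 0.0229) and -0.58 at 0.01% TMT, where it did not pass the test (adjusted p = 0.842). The call was lost only without litter 1. Olfr1396, the neighbor most like Olfr56 at 80.4% identity, had a log2 fold change of 0.14 ± 0.22. GENCODE draws Olfr56 as a long gene that overlaps Ifi47 on the same strand and Olfr1396 on the other. Reads of the overlap with Olfr1396 cannot be told apart without strand, and strand does not separate those of the overlap with Ifi47.

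Olfr1395 was the most abundant OR in 2 of the 3 libraries at 0.1% TMT and in 1 at 0.01% TMT. It had 27514, 23235 and 24664 CPM in the 0.1% libraries of litters 1 to 3, against 13172, 6675 and 28999 CPM in the 0.01% libraries. Litters 1 and 2 showed a higher level at 0.1% (log2 1.06 and 1.80), but litter 3 showed a slightly lower one (log2 -0.23). It ranked 1, 1 and 2 among the ORs at 0.1%, and 4, 9 and 1 at 0.01%, against 51, 79 and 30 without odor. The fitted log2 fold change of Olfr1395 was 0.88 ± 0.24 (adjusted p = 0.0336, edgeR), with a mean over litters of 0.88 ± 1.03 (SD, n = 3), and the call was made in 4 of 12 alternatives.

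Olfr1297, on chromosome 2 at 111621134 to 111622072 on the minus strand, had 4934, 4214 and 4682 CPM at 0.1% TMT, against 3450, 1357 and 3298 CPM at 0.01% TMT. The groups did not overlap, and the low value of litter 2 at 0.01% gave the largest difference within a litter (log2 1.62, against 0.51 and 0.50). Its log2 fold change was 0.86 ± 0.22, or 1.82-fold (1.35 to 2.46, adjusted p = 0.0152, edgeR), and the call was made in 5 of 12 alternatives and lost when any 1 litter was left out. The no odor level was 511 to 571 CPM, so Olfr1297 was already 2.19 higher on the log2 scale at 0.01% TMT and 3.07 higher at 0.1% TMT. Its neighbor Olfr1298 had a log2 fold change of 0.25 ± 0.43 between the TMT concentrations (adjusted p = 1, edgeR).

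Olfr1506, at 90217395 to 90224471 on the minus strand of chromosome 2, was a rare receptor. It had 27, 0 and 17 counts in the 0.1% libraries of litters 1 to 3, against 0, 0 and 0 counts in the 0.01% libraries. Among the no odor libraries it was detected in that of litter 1 alone, at 256 CPM. With a floor of 3 counts over the 3 libraries at 0.01%, the pooled level at 0.1% was at least 13.1-fold higher, a bound that covers counting error only. The call (adjusted p = 0.00414, edgeR) was made in 6 of 11 alternatives, and was lost without litter 1, without litter 3, without the litter block, by DESeq2 and in the fit over 18 libraries. Of the 50-base stretches of its transcripts, 6.89% also occur in another OR, mostly in Olfr984 on chromosome 9, which had 572, 508 and 307 CPM at 0.1%, against 224, 168 and 264 CPM at 0.01%. Olfr984 itself was not called (log2 1.03 ± 0.42, adjusted p = 0.667, edgeR).

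**Figure D2:**
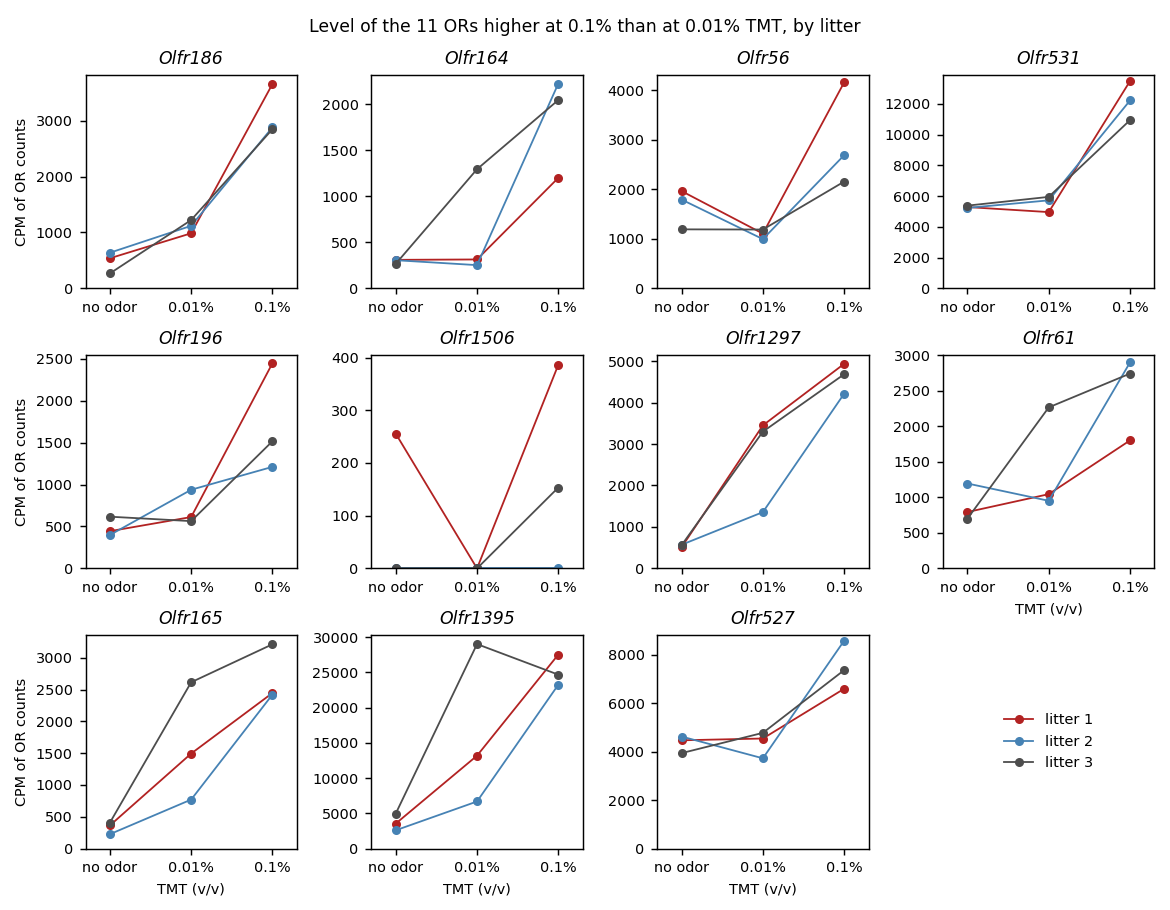
Level (CPM of OR counts, linear axes that start at 0) of the 11 called ORs without odor, at 0.01% and at 0.1% TMT, each line joining the 3 littermates of 1 litter. Olfr186, Olfr196, Olfr531, Olfr527, Olfr56 and Olfr1297 have every 0.1% value above every 0.01% value, whereas the litter 3 value at 0.01% TMT reaches into the range of the 0.1% values for Olfr164, Olfr165, Olfr61 and Olfr1395.

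Of the 11 receptors, 9 were higher in 3 of 3 litters, the exceptions being Olfr1395 and Olfr1506, and 6 had groups that did not overlap. Over all ORs, 130 were higher in 3 of 3 litters (11.9%) and 120 lower in 3 of 3 (11%), and 43 had all values at 0.1% above, and 43 below, those at 0.01%. The fit found almost no spread particular to single ORs beyond the trend with their level, so that the p-values rest mainly on a spread shared by all ORs. Litters differed most for Olfr164 and Olfr1395 among the called ORs with counts in every library (SD of the within-litter log2 difference 1.21 and 1.03). Zones came from total RNA, not pS6-IP-Seq, of dissected dorsal and ventral epithelium (3 libraries each), fitted here without a block. The study's own fit called more ORs ventral and left fewer in neither zone. By the zones fitted here, 8 of the 11 were among the 437 ORs called ventral, 0 among the 416 called dorsal and 3 among the 234 called neither. All were class II ORs, which made up 957 of the 1082 ORs with a class label. None of 125 class I ORs was called, where 1.01% of all ORs were, so that these counts say nothing particular about class. By abundance, 9 of the 11 were among the 201 ORs that averaged over 100 counts.

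**Figure D3:**
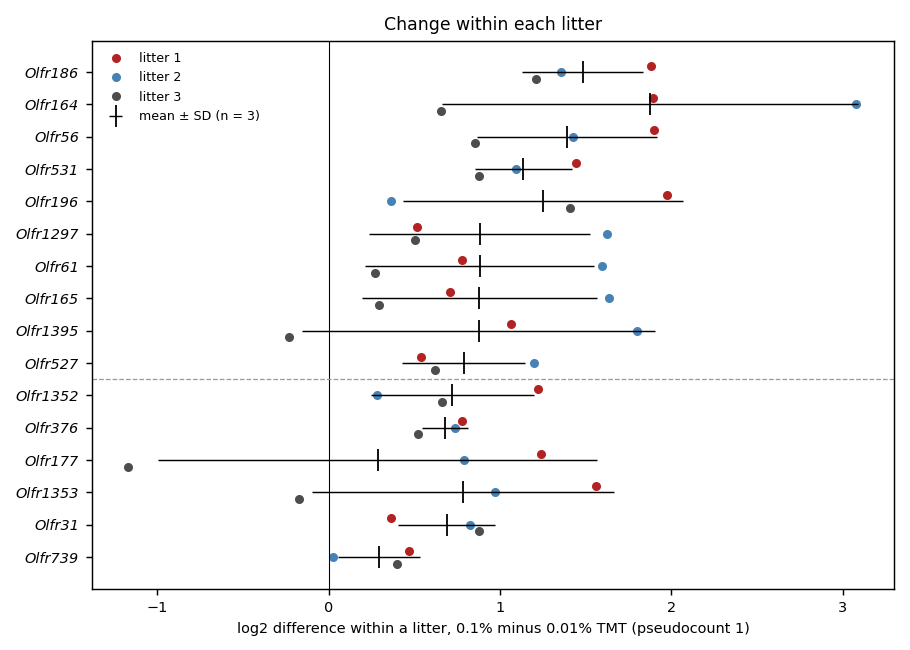
Log2 difference of 0.1% minus 0.01% TMT within each litter (colored points), with the mean and SD over the 3 litters (black), for 10 called ORs above the dashed line and for the 6 other ORs enriched at 0.1% TMT over no odor below it. Olfr1506 is left out because it had 0 counts at 0.01%. Litter 3 gives the smallest difference for 8 of the 10 called ORs, the exceptions being Olfr196 and Olfr527, and a negative one for Olfr1395.

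The direct comparison can be set beside each concentration's own comparison with the no odor littermates, which uses the same TMT libraries and is therefore no independent evidence. At 0.01% TMT, 4 ORs were enriched over no odor (0.368%), namely Olfr1297, Olfr165, Olfr1395 and Olfr186, and 1 was lower (0.0919%). That receptor, Olfr1276, named after its values were seen, had 1444, 254 and 650 CPM at 0.1% TMT, against 1284, 462 and 384 CPM at 0.01% TMT, and showed no difference past the threshold between them (log2 0.10 ± 0.32, adjusted p = 1, edgeR). At 0.1% TMT, 15 ORs were enriched over no odor (1.38%) and 7 were lower (0.643%). These 22 calls were 11 without litter 2 and also 11 without the litter block, and the 5 calls at 0.01% TMT were 2 without litter 3. All 4 ORs already enriched at 0.01% were called higher again at 0.1%, and 9 of the 15 enriched at 0.1% were called in the direct comparison. Olfr527 and Olfr1506 were called directly but not at 0.1% over no odor (adjusted p = 0.107 and 0.739, edgeR).

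The other 6 of the 15 ORs enriched at 0.1% TMT over no odor were not called against 0.01% TMT, with log2 fold changes of 0.30 to 0.76. Olfr376, one of the receptors that the study followed for TMT, had 3589, 2182 and 2887 CPM at 0.1%, against 2091, 1301 and 2003 CPM at 0.01%. Every 0.1% value lay above every 0.01% value, and the log2 difference was 0.68 ± 0.14 over litters (SD, n = 3), but the fitted change of 0.68 ± 0.22 did not pass the test (adjusted p = 0.152, edgeR). Olfr1352 had 2946, 1449 and 2210 CPM at 0.1%, against 1254, 1189 and 1391 CPM at 0.01% (log2 0.74 ± 0.24, adjusted p = 0.139). The others were Olfr1353 (log2 0.76), Olfr31 (0.69), Olfr177 (0.30) and Olfr739 (0.30). That of Olfr177 was -0.22 without litter 1. With scaling by all genes instead of by ORs, 17 ORs were called, the same 11 with Olfr1352, Olfr376, Olfr31, Olfr453, Olfr720 and Olfr176, whose 45 counts all came from the 0.1% library of litter 3. That scaling moved the median log2 fold change of all ORs to 0.15, and the change of Olfr376, for example, was 0.85 with it.

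Other receptors linked to TMT were not called over this step. Olfr506 had 501, 478 and 776 CPM at 0.1% TMT, against 986, 896 and 552 CPM at 0.01% TMT, and litters 1 and 2 went against litter 3 (log2 -0.43 ± 0.32, adjusted p = 1, edgeR). Olfr1019, a receptor whose response to TMT has been linked to freezing behavior, had 629, 1061 and 1019 CPM at 0.1%, against 612, 952 and 852 CPM at 0.01%. These levels overlapped, and the log2 fold change of 0.16 ± 0.30 corresponds to a 95% interval of 0.745 to 1.68-fold. Over no odor, Olfr1019 was not called at any TMT concentration of the series (lowest adjusted p = 0.401, at 100% TMT, edgeR). Olfr506 was enriched over no odor at 100% TMT (log2 3.02) but not at 1% TMT (log2 0.22). Olfr1160 had a log2 fold change of 0.58 ± 0.53, and Olfr837, with 3, 1 and 7 counts at 0.1% against 1, 5 and 0 counts at 0.01%, was too rare to be compared at this depth.

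Among ORs known for other ligands, 0 of 10 were called, where 1.01% of all ORs were, so that this count says nothing particular about them. The acetophenone receptors Olfr923, Olfr983, Olfr1377, Olfr160 and Olfr145 had log2 fold changes of -0.04, -0.63, 0.30, -0.25 and -0.22. The lowest adjusted p of them was 0.734, for Olfr983. Olfr16, which responds to lyral, and Olfr73, which responds to eugenol, had log2 fold changes of -0.05 and 0.24, and Olfr17, Olfr1507 and the sparsely counted octanal receptor Olfr2 did not pass either. Of the most abundant ORs, Olfr15 had overlapping levels at both concentrations. It had 12398, 11072 and 10970 CPM at 0.1% TMT, against 11828, 10355 and 11106 CPM at 0.01% TMT (log2 0.05 ± 0.22). Olfr140, Olfr536 and Olfr743 had log2 fold changes of 0.38, -0.04 and -0.08.

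The largest uncalled differences of the same sign in every litter, among ORs averaging at least 20 counts, reached similar sizes in both directions. On the positive side were Olfr453 (log2 1.19), Olfr984 (1.03), Olfr341 (0.78), Olfr827 (0.78) and Olfr315 (0.75). On the negative side were Olfr487 (-1.03), Olfr138 (-0.92), Olfr730 (-0.83), Olfr1213 (-0.78) and Olfr1218 (-0.73). Olfr453 had 558, 553 and 514 CPM at 0.1% TMT, against 209, 210 and 288 CPM at 0.01% TMT, and was not called (adjusted p = 0.184, edgeR). Its no odor littermates, at 336 to 558 CPM, lay above the 0.01% libraries. Olfr487 had 186, 314 and 117 CPM at 0.1%, against 358, 462 and 372 CPM at 0.01%, and these groups did not overlap either (adjusted p = 0.715, edgeR). The 24 uncalled neighbors and paralogues of the called ORs had log2 fold changes of -0.49 (Olfr19) to 1.03 (Olfr984). Of these 24, 17 were above 0, against 47.7% of all ORs, and the median was 0.12, against -0.01 over all ORs.

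To place the low concentration step among receptors defined on other mice, the ORs enriched at 1% TMT (51, or 4.69% of all) and at 100% TMT (126, or 11.6%) over their own no odor littermates were followed. The study, with its own fit, reports fewer ORs enriched at 100% TMT. All 11 called ORs were among the 51, and 8 were among the 126. Of the 51 ORs, 43 had a positive log2 fold change of 0.1% over 0.01% TMT (84.3%), against 519 of all 1088 ORs (47.7%), and the median was 0.50, against -0.01 over all ORs. In litters 1, 2 and 3 the median of the 51 was 0.71, 0.37 and 0.35. They took 13.7%, 13.1% and 12.3% of OR counts at 0.1% TMT, against 8.25%, 8.05% and 10.5% at 0.01% TMT, and 6.50% to 6.74% without odor. The 10 ORs enriched at 1% but not at 100% were all above 0 (median 0.60), and so were 33 of the 41 enriched at both (median 0.50). Of the 85 ORs enriched at 100% but not at 1%, 32 were above 0 (37.6%), none was called and the median was -0.11.

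**Figure D4:**
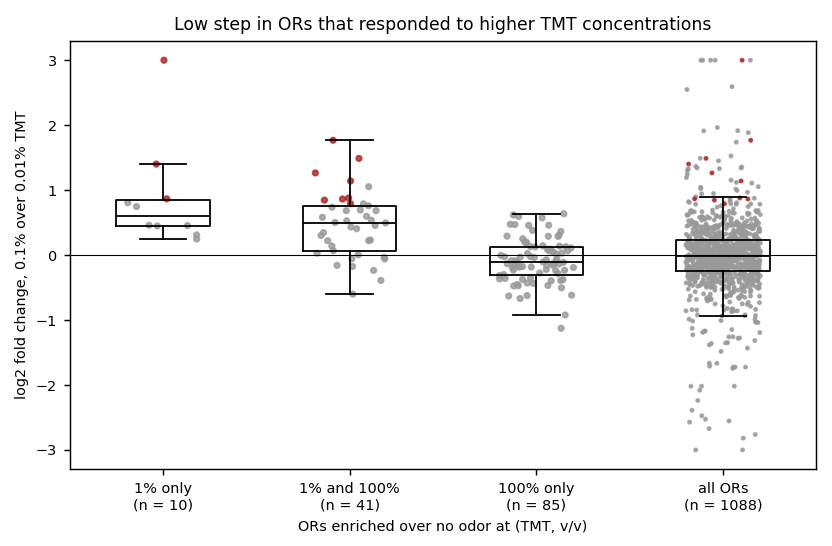
Log2 fold change of 0.1% over 0.01% TMT for the 10 ORs enriched at 1% TMT only, the 41 enriched at 1% and 100%, the 85 enriched at 100% only, and all 1088 ORs, with called ORs in red, boxes for the quartiles, a line at the median and whiskers to the farthest OR within 1.5 box lengths. The first 2 lists have medians of 0.60 and 0.50, the third one of -0.11 and all ORs one of -0.01. The 8 ORs beyond 3 in either direction are drawn at the edge.

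Whether the change over the low step differed from that over the high step, 100% against 1% TMT, was tested in 1 fit over both sets of litters, which share no library. The high step spans a 100-fold range of concentration and the low one a 10-fold range. The low step exceeded the high step in 22 ORs (2.02%) and fell below it in 52 (4.78%). Olfr56 showed the largest such difference among the called ORs with counts in all libraries: its log2 fold change was 1.41 over the low step and -1.93 over the high step (difference 3.33 ± 0.37, adjusted p = 7.53e-16, edgeR). Olfr164 had 1.77 and -1.09 over the low and high steps, Olfr61 0.87 and -1.42, Olfr186 1.49 and -0.62, and Olfr196 1.27 and -0.27. For Olfr531 the 2 steps were 1.15 and 0.20, and for Olfr1297 0.87 and 0.00, where the difference of 0.87 ± 0.34 did not pass (adjusted p = 0.137). These called ORs were chosen by their rise over the low step in the same libraries, which favored a positive difference. In the other direction, Olfr506 had -0.43 over the low step and 2.91 over the high step, Olfr1065 -0.37 and 3.09, and Olfr96 -0.24 and 1.91. Of the 85 ORs enriched at 100% only, 46 had a low step called below the high step, and of the 10 enriched at 1% only, 7 had one called above it, where the choice of each list fixed the direction of the high step. Of the 74 calls in both directions, 34 were left without replicate 2, and 41 were among the 49 called without replicate 3.

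**Figure D5:**
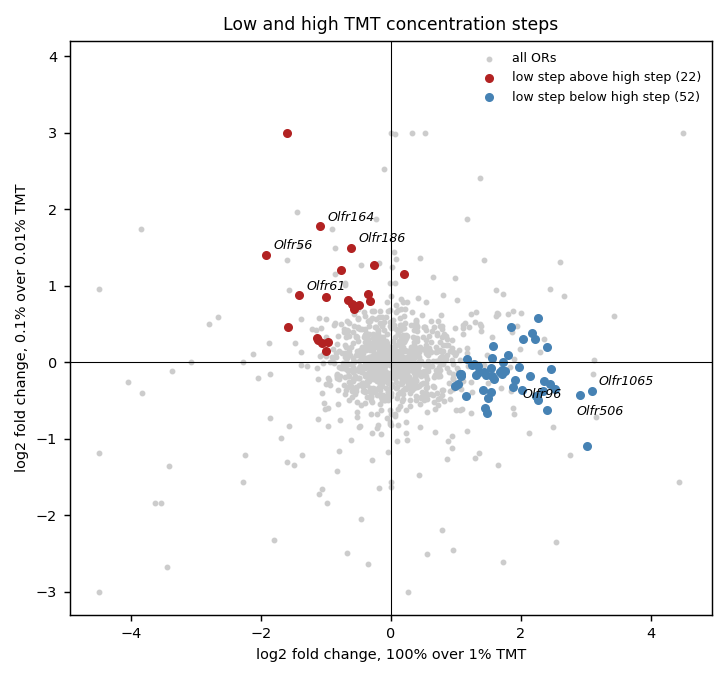
Log2 fold change of each OR over the low step (0.1% over 0.01% TMT, vertical axis) against that over the high step (100% over 1% TMT, horizontal axis), with the 22 ORs whose low step was above the high step in red and the 52 with the opposite difference in blue. Olfr56, Olfr164, Olfr61 and Olfr186 lie at the upper left, and Olfr506, Olfr1065 and Olfr96 near 0 on the vertical axis and far to the right. ORs beyond 3 (7 ORs) or 4.5 (3 ORs) on the 2 axes are drawn at the edge.

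Whether the same step in acetophenone gave the same change was tested as the difference between the TMT step and the ACT step, with 6 litters in 1 fit. No OR was called higher or lower (0% and 0%), with 26 and 15 at an unadjusted p under 0.05. The smallest adjusted p was 0.968 by edgeR and 0.528 by edgeR without TMM. By DESeq2, which also made 0 calls, it was 0.0752. For Olfr186 the log2 fold change was 1.49 over the TMT step and -1.06 over the ACT step (difference 2.55 ± 0.67), and for Olfr531 it was 1.14 and -0.94 (difference 2.08 ± 0.57). Neither difference passed after adjustment over all ORs. The spread among replicates was larger in this fit, with a biological coefficient of variation of 0.346, against 0.234 in the comparison of 0.1% with 0.01% TMT alone. Without replicate 1 of both experiments, 2 ORs passed, Olfr56 (log2 2.43, adjusted p = 0.000164, edgeR) and Olfr1506, whose fitted value rests on libraries at 0.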

How the data were processed

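pS6-IP-Seq RNA from the olfactory epithelium of single mice was sequenced by the authors in 50-base reads. The authors aligned the reads with STAR, estimated expression with RSEM on GRCm38 with an OR annotation extended by untranslated regions, and deposited, for each condition, a table of intact ORs with expected counts rounded to whole numbers. The deposited counts were used as they stand. The group means in the same tables are a normalized signal (counts divided by size factors over all genes), which the authors deposited and which served only to recover those size factors. The deposited tables also hold the authors' own fold changes and p-values, which were not used. No column of another sample was used (0 such columns).

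Libraries were grouped by the stimulant label. The direct comparison joined the 0.1% and 0.01% TMT tables by gene name and was tested with edgeR 4.0.16 in R 4.3.3 (glmQLFit with robust estimation, glmQLFTest, two-sided), with TMM factors over the ORs, no filter on low counts and litter as a block, at an adjusted p under 0.05. SEs are the log2 fold change divided by the square root of F, and 95% intervals are 1.96 SE. Within-litter log2 differences used a pseudocount of 1. Litters come from the methods, where same-sex littermates form a replicate. As a check, deviations of 866 ORs from their group means correlated at 0.210, 0.0900 and 0.132 between same-numbered 0.1% and 0.01% libraries, and at -0.199 to 0.0704 between others. No libraries of 1 group agreed within sampling noise (chi-square per degree of freedom 5.50 to 8.03). The mice are separate animals. The p-values rest mainly on a spread estimated across ORs from the 3 litters, not on each OR's own spread.

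The ORs named are those called in the direct comparison or enriched over no odor at either concentration, the TMT receptors that the study names, with Olfr1019 and Olfr1160, the 5 largest uncalled changes of each sign with at least 20 counts on average and 1 sign in all litters, ORs with other known ligands, the 5 most abundant ORs, neighbors and paralogues of called ORs, and the 10 ORs per direction with the smallest p among those whose low and high steps differed. The members and lists were chosen with earlier results of these data known. Class labels (1082 ORs) are those of the study, positions (1087 ORs) those of RefSeq on GRCm38.p6, and coding sequences were read from that genome with GENCODE models (1083 ORs with transcripts). Clusters join ORs less than 1 Mb apart. Alternatives were no block, no TMM, RLE factors, size factors over all genes, a mean count of 10 or more, DESeq2 1.42.0, edgeR's likelihood ratio test, fits over 9 or 18 libraries, and leaving out each litter. The scripts were tested on simulated data.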

Additional observations from a re-analysis of the deposited data

Results flagged for a closer look

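For 28 of the named ORs the change over the low step (0.1% against 0.01% TMT) differed from that over the high step (100% against 1% TMT) by the test of the difference itself (edgeR's quasi-likelihood test, 12 libraries, adjusted p under 0.05). Over all ORs, 22 had a low step above the high step and 52 one below it. The differences below are low minus high on the log2 scale, and their causes were not tested.

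Among the named ORs the low step was above the high step for 17, which include 10 of the 11 called in the comparison of 0.1% with 0.01% TMT. Those 11 were chosen by their rise over the low step in the same libraries, which favored a positive difference. Other ORs were named because of this very test, so neither count is independent evidence. Of those called, the difference was 3.33 for Olfr56, 2.87 for Olfr164, 2.29 for Olfr61, 2.11 for Olfr186, 1.85 for Olfr165, 1.53 for Olfr196, 1.24 for Olfr1395, 1.12 for Olfr527 and 0.94 for Olfr531. For Olfr1506 the fitted difference was 8.12, a value that depends on the prior count because the gene had 0 counts in all 3 libraries at 0.01% TMT. Of those not called over the low step, it was 2.05 for Olfr330, 1.96 for Olfr453, 1.48 for Olfr720, 1.36 for Olfr1353, 1.32 for Olfr1352, 1.27 for Olfr31 and 1.25 for Olfr315.

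The low step was below the high step for 11 named ORs, namely Olfr1449 (-4.11), Olfr1065 (-3.46), Olfr506 (-3.34), Olfr478 (-3.03), Olfr1054 (-2.86), Olfr111 (-2.76), Olfr57 (-2.20), Olfr96 (-2.14), Olfr1477 (-2.04), Olfr539 (-1.78) and Olfr923 (-1.29). None of these 11 ORs was called over the low step, where their log2 fold changes ran from -1.13 for Olfr1449 to 0.38 for Olfr539. Over no odor, Olfr923 was called lower at 1% TMT (log2 -0.97, adjusted p = 0.0193, edgeR) and was not called at 100% TMT (log2 0.20).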

How the results depend on the processing

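Of the 11 calls between 0.1% and 0.01% TMT, 4 remained without the replicate block, 4 by DESeq2, 6 in the fit over 9 libraries and 5 in that over 18 libraries, and scaling by all genes gave 17. Leaving out 1 litter gave 2 to 7 calls. The enrichment counts at each concentration changed as follows: 0.1% TMT over no odor had 22 calls, 11 without the replicate block and 11 to 19 without 1 litter. The corresponding ranges without 1 litter were 2 to 4 at 0.01% TMT (5 with all), 98 to 126 at 100% TMT (162 with all), 0 to 2 for the difference between TMT and ACT steps (0 with all) and 34 to 50 for that between low and high TMT steps (74 with all). The replicate block otherwise moved no count of calls by more than 1.5 times. The median log2 fold change of the ORs enriched at 100% TMT, 0.02, became -0.031 without TMM, and that of the ORs enriched at 1% TMT, 0.50, kept its sign throughout. The cause of each change was not tested.

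The ORs that changed sign were all uncalled in the comparison of 0.1% with 0.01% TMT. With size factors over all genes the log2 fold change was 0.059 for Olfr1507, 0.12 for Olfr16, 0.065 for Olfr183, 0.026 for Olfr525, 0.13 for Olfr536, 0.089 for Olfr743 and 0.13 for Olfr923. Without TMM it was -0.046 for Olfr166, -0.046 for Olfr191 and -0.015 for Olfr530. With RLE factors it was -0.00813 for Olfr166 and -0.00941 for Olfr191. By DESeq2 it was -0.00813 for Olfr166 and -0.020 for Olfr191. Without the replicate block it was -0.052 for Olfr530. In the fit over 9 libraries it was -0.000683 for Olfr530. Leaving out 1 litter at a time gave -0.64 to 1.05 for Olfr1269, -0.23 to 0.43 for Olfr1276, -0.017 to 0.39 for Olfr1298, -0.28 to 0.52 for Olfr1394, -0.034 to 0.31 for Olfr1396, -0.45 to 0.22 for Olfr1507, -0.085 to 0.082 for Olfr166, -0.22 to 1.04 for Olfr177, -0.40 to 0.15 for Olfr183, -0.019 to 0.53 for Olfr187, -0.39 to 0.28 for Olfr191, -3.38 to 0 for Olfr2, -0.56 to 0.24 for Olfr525, -0.18 to 0.33 for Olfr530, -0.022 to 0.36 for Olfr532, -0.14 to 0.048 for Olfr536, -0.26 to 0.14 for Olfr743, -0.43 to 2.76 for Olfr837 and -0.10 to 0.074 for Olfr923. Of the 224 ORs averaging under 10 counts, 1 was called.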
